A study of Homo sapiens with 4 samples.

Results

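The olfactory receptor gene clusters of human chromosomes 11 and 1 were described by the H3K9me2 peaks that overlap them. On hg19 they were taken as 5 blocks of 8.0 Mb in all, in 3 clusters. The first pair lies in 11p15.4 on either side of the beta-globin genes, at 4.35 to 5.23 Mb and 5.33 to 6.25 Mb of chromosome 11. The second pair lies on either side of the centromere, at 48.2 to 51.5 Mb in 11p11 and 55.0 to 56.6 Mb in 11q11-q12. The last block lies in 1q44, at 247.6 to 248.9 Mb of chromosome 1. Every peak with at least 1 bp in a block was a member, which gave 2683 peaks of the 1000000 in the deposited lists. The first CUX1 knockout library held 618 of them and the second 652, against 705 and 708 in the controls. Flanks of 2 Mb on each side of each cluster held 4492 peaks over 10.4 Mb, and the flank between the 1q44 block and the chromosome end was 351 kb long.

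H3K9me2 (histone H3 dimethylated at lysine 9) was profiled by CUT&RUN. An antibody against the mark brings a nuclease to chromatin inside permeabilised cells, and the DNA cut free is sequenced. The cells were K562, an established human myeloid leukemia line. The knockout group was 2 libraries of cells given a guide RNA against CUX1, a homeodomain transcription factor, and the control group was 2 libraries of cells given a guide against HPRT. Both groups thus carried a guide RNA, and no other treatment was labelled. Whether the cells were clones or pools is not labelled, and the peak lists hold no measure of CUX1 level. The title of the series names a reduction of this mark in cells deficient in CUX1. The comparison describes where listed peaks lay in the receptor clusters, and the lists hold no measure of the total level of the mark.

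Olfactory receptors are G protein-coupled receptors that detect odorants, and they form one of the largest gene families of mammals. Each olfactory neuron expresses 1 allele of 1 receptor gene, and the clusters are held silent elsewhere, in neurons and in other tissues. H3K9me2 is laid down mainly by the methyltransferases G9a and GLP and covers broad stretches of silent chromatin. Many clusters also hold receptor pseudogenes and TRIM genes, which encode RING-type ubiquitin ligases and their relatives.

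In RefSeq's gene order on GRCh38.p14, 307 olfactory receptor genes lay in the 4 runs that correspond to the blocks, 155 coding genes and 152 pseudogenes. The run between RRM1 and HBB held 54 of them among 69 genes, and the run between HBE1 and FHIP1B held 49 among 69. The run between PTPRJ and LRRC55, which spans the centromere, held 148 among 202. The run between NLRP3 and LYPD8 in 1q44 held 56 among 71. TRIM genes numbered 2, 5, 12 and 1 in the same order of runs. The peaks are on hg19 and these genes are on another build, so single genes were not placed under peaks.

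Receptor promoters had a lower median GC content than promoters in general. Of the 307 receptor genes, 126 had a promoter in the RefSeq table (250 bases before to 50 bases after the start). Their median GC content was 36.7%, against 58.3% over all 27305 promoters of the table. The motif CG, which reads the same on both strands, occurred a median of 1 time in receptor promoters and 14 times in all promoters. At least 10 such sites occurred in 1.59% of receptor promoters, against 56.0% of all promoters. The 250 bases before the start are printed for the receptor gene with an entry that lies nearest to HBB on each side of the globin genes (OR51V1 and OR52H1), for the first receptor after PTPRJ (OR4B1), and for TRIM58 of 1q44 as a CG-rich gene in a receptor cluster. Capitals mark CG. OR51V1 (GRCh38.p14 chr11:5200683-5200932, minus strand) holds 0 in this stretch, OR52H1 (chr11:5548541-5548790, minus strand) and OR4B1 (chr11:48216560-48216809, plus strand) hold 1 each, and TRIM58 (chr1:247856937-247857186, plus strand) holds 12.
OR51V1: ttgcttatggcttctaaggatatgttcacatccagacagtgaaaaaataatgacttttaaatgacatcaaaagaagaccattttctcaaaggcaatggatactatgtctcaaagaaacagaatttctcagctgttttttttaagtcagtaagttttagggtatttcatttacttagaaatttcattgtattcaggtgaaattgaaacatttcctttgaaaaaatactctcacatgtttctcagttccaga
OR52H1: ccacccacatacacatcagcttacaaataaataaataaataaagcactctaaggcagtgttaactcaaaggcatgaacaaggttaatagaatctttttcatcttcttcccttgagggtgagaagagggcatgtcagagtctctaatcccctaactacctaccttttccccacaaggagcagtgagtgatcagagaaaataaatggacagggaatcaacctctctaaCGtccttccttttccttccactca
OR4B1: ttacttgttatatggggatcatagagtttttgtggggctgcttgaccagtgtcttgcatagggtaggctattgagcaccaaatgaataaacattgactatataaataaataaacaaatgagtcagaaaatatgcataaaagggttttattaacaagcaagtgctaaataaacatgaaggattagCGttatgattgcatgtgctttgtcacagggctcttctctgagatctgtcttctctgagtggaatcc
TRIM58: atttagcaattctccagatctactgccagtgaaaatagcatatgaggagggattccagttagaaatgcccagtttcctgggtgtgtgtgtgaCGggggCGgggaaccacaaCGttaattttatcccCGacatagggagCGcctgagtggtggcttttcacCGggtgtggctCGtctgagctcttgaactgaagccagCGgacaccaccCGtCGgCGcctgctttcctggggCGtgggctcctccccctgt

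The lists themselves differed between groups, and this touches every value that follows. Each list held exactly 250000 peaks, called per library. The lowest −log10 p listed was 1.49 and 1.35 in the knockouts, against 1.25 and 1.27 in the controls. The smallest listed width was 263 and 339 bp in the knockouts, against 362 and 369 bp in the controls, and the smallest gap was 1056 and 1360 bp, against 1452 and 1477 bp. All peaks together covered 423 and 585 Mb in the knockouts and 693 and 679 Mb in the controls. No depth is known for these libraries, and whether it had a part in these values was not tested. Separate cultures are not named in the labels, so each p measures a spread that may be technical. With 2 libraries against 2, the two-sided exact permutation test cannot give a p under 0.3333.

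In the lists as deposited, less of the olfactory receptor sequence lay under peaks in both knockout libraries than in either control. The 5 blocks together were covered over 12.0% and 19.5% in the knockouts, against 24.2% and 23.7% in the controls. The means were 15.8% ± 5.27 in the knockouts and 23.9% ± 0.347 in the controls (SD, n = 2 each), a difference of -8.16 percentage points or -34.1% (two-sided exact permutation p = 0.3333). The first knockout library lay far below the second, and without it the difference was -4.43 points. Over all autosomes coverage was 14.5% and 20.1% in the knockouts, against 23.7% and 23.3% in the controls, so the libraries stood in a similar order outside the clusters.

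The blocks differed widely from each other. The 11p15.4 block before the globin genes was covered over 19.1% and 31.3% in the knockouts, against 37.6% and 34.6% in the controls. The 11p15.4 block after them was covered over 21.1% and 32.2%, against 33.7% and 28.3%, and here the groups overlapped. The 1q44 block was covered over 19.1% and 29.0% in the knockouts, against 36.7% and 32.5% in the controls. These 3 blocks were the most densely covered ones in all 4 libraries, though in the second control the block after the globin genes (28.3%) was barely above 11q11-q12 (28.1%).

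The blocks beside the centromere were sparser. In 11p11, peaks covered 5.85% and 9.84% in the knockouts, against 14.6% and 13.9% in the controls. In 11q11-q12 they covered 9.87% and 17.8%, against 20.9% and 28.1%. Except in the 11p15.4 block after the globin genes, both knockouts lay below both controls in every block, with an exact permutation p of 0.3333 that became 0.417 after Benjamini-Hochberg adjustment over the 5 blocks. The differences were -10.9, -4.33, -6.37, -10.7 and -10.5 points for the blocks in genome order on chromosome 11 and then 1q44. Without the first knockout library they were -4.82, 1.21, -4.37, -6.71 and -5.52 points, so the second block changed direction.

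**Figure D1:**
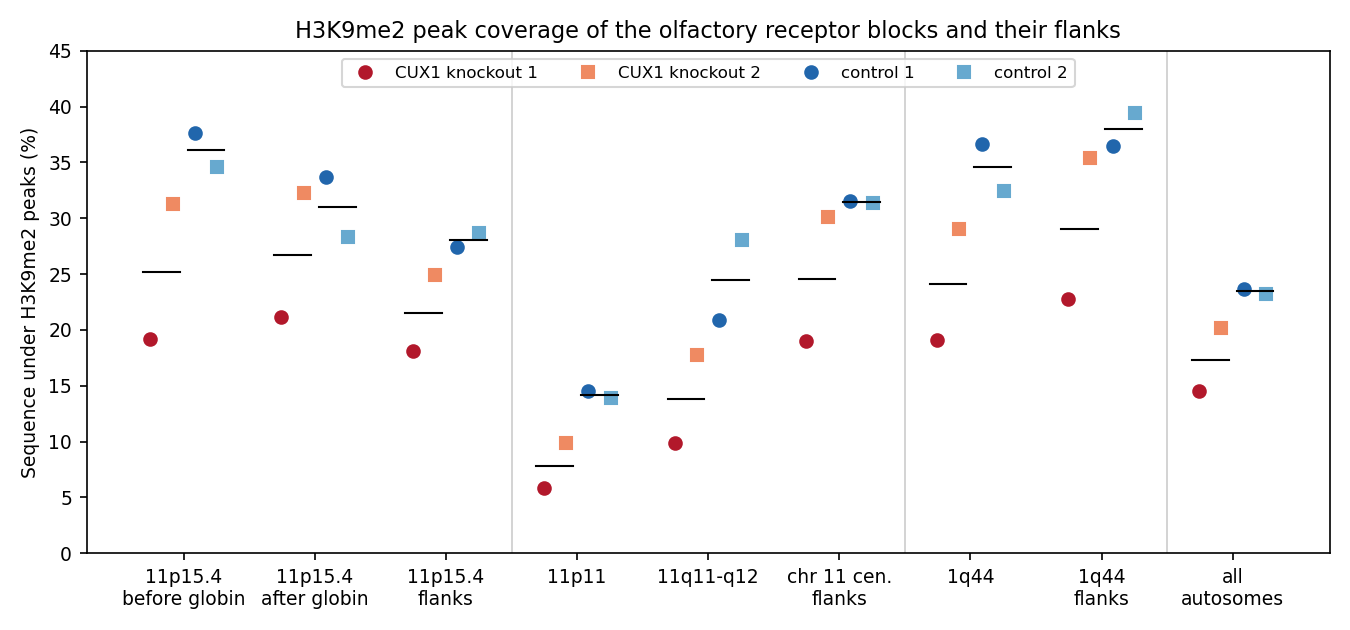
Percent of sequence under H3K9me2 peaks in each olfactory receptor block, in the flanks of its cluster and on all autosomes, 1 point per library with bars at the group means (n = 2 each). The 11p11 block is the sparsest in each library (5.85% and 9.84% in the knockouts, 14.6% and 13.9% in the controls), and the first knockout library is the lowest in every region shown.

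A region and its flanks were read from 1 list, so their ratio compares sequence within a library. Over all 5 blocks together the ratio of coverage to that of the flanks was 0.616 and 0.665 in the knockouts, against 0.777 and 0.736 in the controls. With all blocks pooled, all 4 libraries thus had less coverage in the clusters than beside them. Without an hg19 annotation the flanks were not cleared of receptor genes. No ratio to the flanks therefore sets receptor sequence against sequence known to lack it. The mean log2 ratio was -0.52 ± 0.15 (SD, n = 4, exact sign-flip p = 0.125, the smallest that 4 libraries allow). The log2 ratio was lower in the knockouts by a difference of -0.24, and the groups did not overlap (exact permutation p = 0.3333). Single blocks differed. The block before the globin genes was above the flanks of its cluster in all 4 libraries. The block after the globin genes was so except in the second control. Both blocks beside the centromere were below in all 4, and the last block in 3. With stretches of at least 100 kb without peaks left out, all pooled ratios were higher. They were 0.679 and 0.734 in the knockouts, against 0.857 and 0.812 in the controls. Against the autosomes outside the blocks the ratio was 0.830 and 0.967 in the knockouts and 1.02 and 1.02 in the controls. In the controls the clusters thus carried about the average coverage of the autosomes.

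That average joined dense and sparse blocks. The autosomes include 265 Mb in stretches of at least 100 kb without peaks, which raises the ratio of any block without such stretches. The flanks also lay above the autosomes in every library. All flanks together were covered over 19.5% and 29.3% in the knockouts, against 31.1% and 32.1% in the controls. Relative to the autosomes, coverage was 1.32 and 1.55 times as high in the 11p15.4 block before the globin genes in the knockouts, against 1.59 and 1.49 times in the controls. In 1q44 it was 1.32 and 1.44 times as high, against 1.55 and 1.40 times. In the 11p15.4 block after the globin genes it was 1.46 and 1.60 times as high in the knockouts, against 1.43 and 1.22 times in the controls. This was the block in which both knockouts lay above both controls on this scale (exact permutation p = 0.3333). The 11p11 block stood at 0.404 and 0.489 in the knockouts, against 0.615 and 0.597 in the controls, and the 11q11-q12 block at 0.681 and 0.882, against 0.883 and 1.21.

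Each block was also set against the flanks of its own cluster. In 11p11 the log2 ratio to the flanks was -1.70 and -1.61 in the knockouts, against -1.12 and -1.18 in the controls, a difference of -0.51. In 11q11-q12 it was -0.95 and -0.76 in the knockouts, against -0.59 and -0.16 in the controls, a difference of -0.48 that was -0.26 without the second control. Groups did not overlap in either block (exact permutation p = 0.3333 each). In the other 3 blocks they did overlap. Those log2 ratios were 0.08 and 0.33 in the knockouts, against 0.46 and 0.27 in the controls, before the globin genes. After the globin genes they were 0.22 and 0.37, against 0.30 and -0.02, and in 1q44 they were -0.25 and -0.28, against 0.01 and -0.28.

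The profiles along the clusters show where the coverage lies. In the 11p15.4 block before the globin genes, the median 100-kb window was covered over 20.4% and 29.9% in the knockouts, against 38.0% and 34.8% in the controls. In 11p11 the median window was covered over 6.29% and 10.4%, against 12.8% and 11.9%. This block held long stretches without peaks. The longest, toward the centromere, ran over 583 kb (chr11:50618375-51201343) and had no peak in any library, and stretches of at least 100 kb without peaks made up 0.850 Mb of this block and 0 Mb of the other 4. The stretch between the 2 blocks beside the centromere was covered over 0.266% and 0.414% in the knockouts, against 0.325% and 0.427% in the controls. Whether hg19 holds assembled sequence throughout these stretches, and whether reads can be placed uniquely there, was not tested. Their lack of peaks is therefore not read as a lack of the mark.

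**Figure D2:**
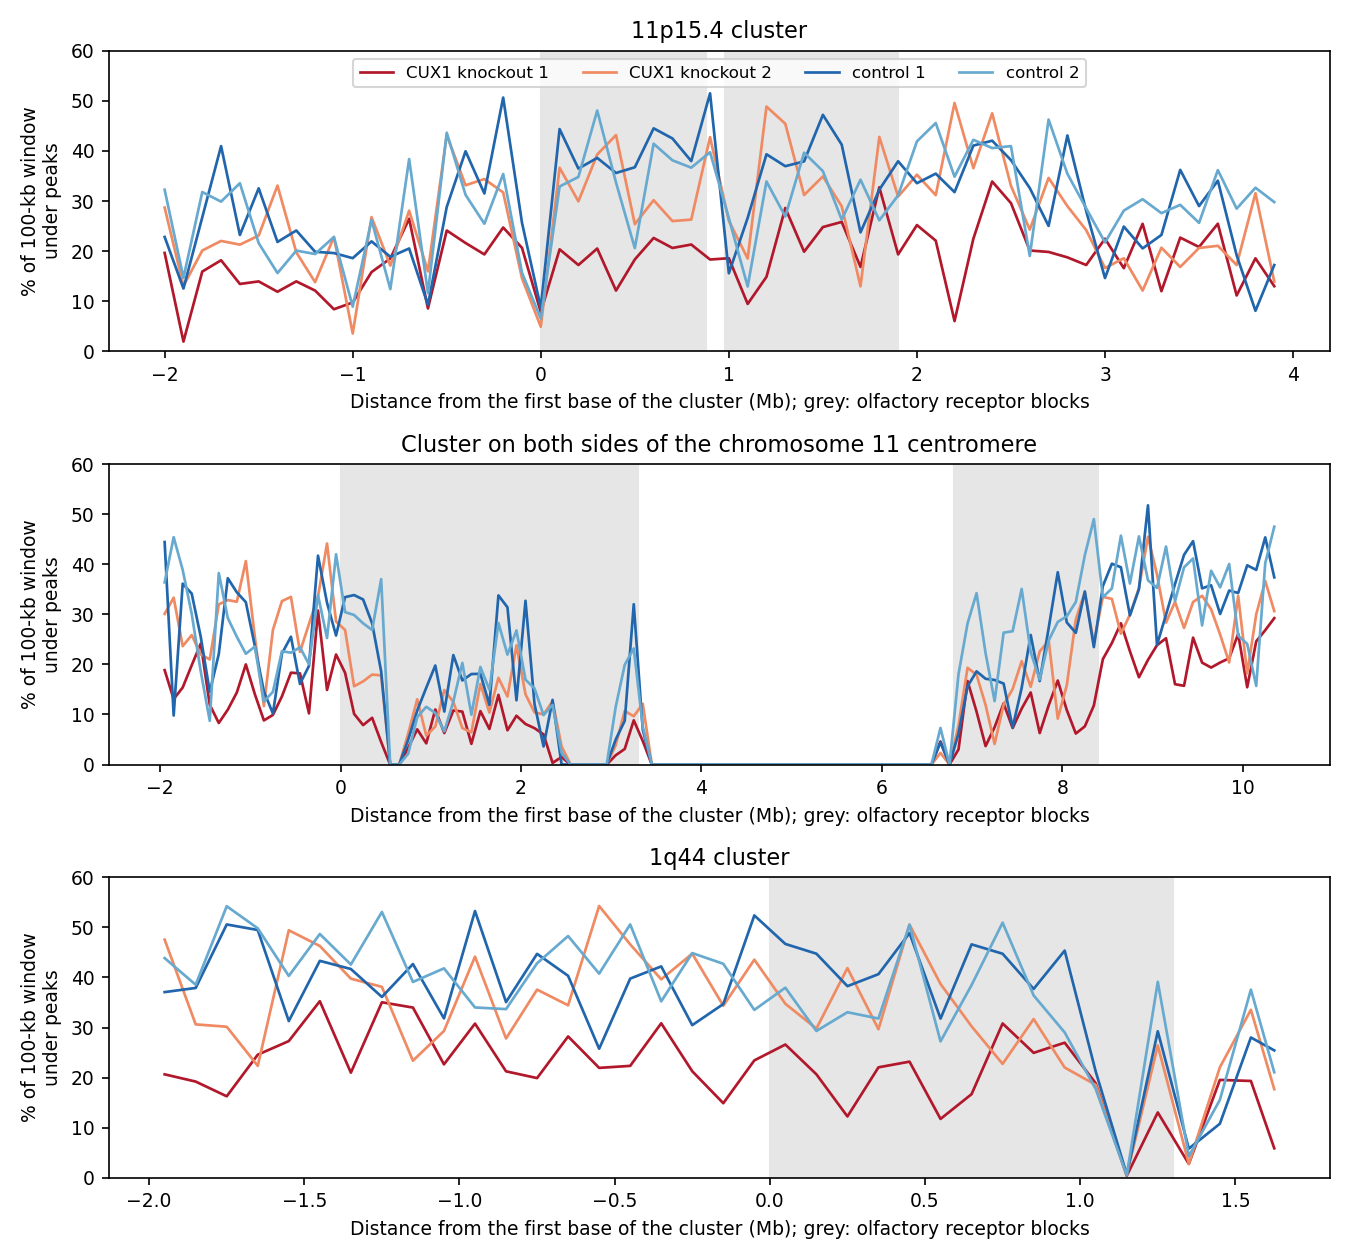
Percent of each 100-kb window under peaks along the 3 clusters and their flanks, 1 line per library, against the distance from the first base of the cluster in Mb, with the blocks in grey. Coverage falls to 0 around the chromosome 11 centromere in all libraries, and whether reads could be placed there was not tested. In 1q44, 1 window is covered over less than 1% in each library (0.412% and 0.527% in the knockouts, 0.673% and 0.525% in the controls).

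How much of the clusters was covered depended on where each list was ended. With 1 limit on −log10 p for all libraries (1.49, the highest of the lists' lowest values), the blocks were covered over 12.0% and 10.8% in the knockouts, against 10.1% and 9.59% in the controls. The knockouts were then the higher group, by 1.61 points. With 1 limit on −log10 q (0.0335, the median of all peaks) they were covered over 8.65% and 13.3% in the knockouts, against 5.53% and 11.3% in the controls. With the strongest peaks of each library kept up to an equal covered length of 423 Mb, coverage was 12.0% and 13.5% in the knockouts, against 15.1% and 13.9% in the controls.

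The ratio to the flanks stayed lower in the knockouts on average in these readings. The difference in log2 ratio over all blocks was -0.21 with 1 limit on −log10 p, -0.29 with 1 limit on −log10 q and -0.22 at equal covered length. In the first of these the groups overlapped, with ratios of 0.616 and 0.590 in the knockouts and 0.803 and 0.602 in the controls. In 11p11 the difference was -0.30, -0.47 and -0.28 in the same order, and in 11q11-q12 it was -0.47, -0.92 and -0.34. In both blocks both knockouts lay below both controls in each of these 3 readings. With the 100000 strongest peaks of each library the difference over all blocks was -0.13 and the groups overlapped, with log2 ratios of -0.43 and -0.93 in the knockouts, against -0.34 and -0.77 in the controls. With the adjoining 2 Mb flank alone, a comparison chosen after the values were seen, the 11p11 difference was -0.61 and the groups again did not overlap. In the lists as deposited the 11q11-q12 difference was -0.40 and the groups overlapped. With 1 limit on −log10 p, 1 limit on −log10 q and equal covered length it was -0.32, -0.89 and -0.23, without overlap.

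**Figure D3:**
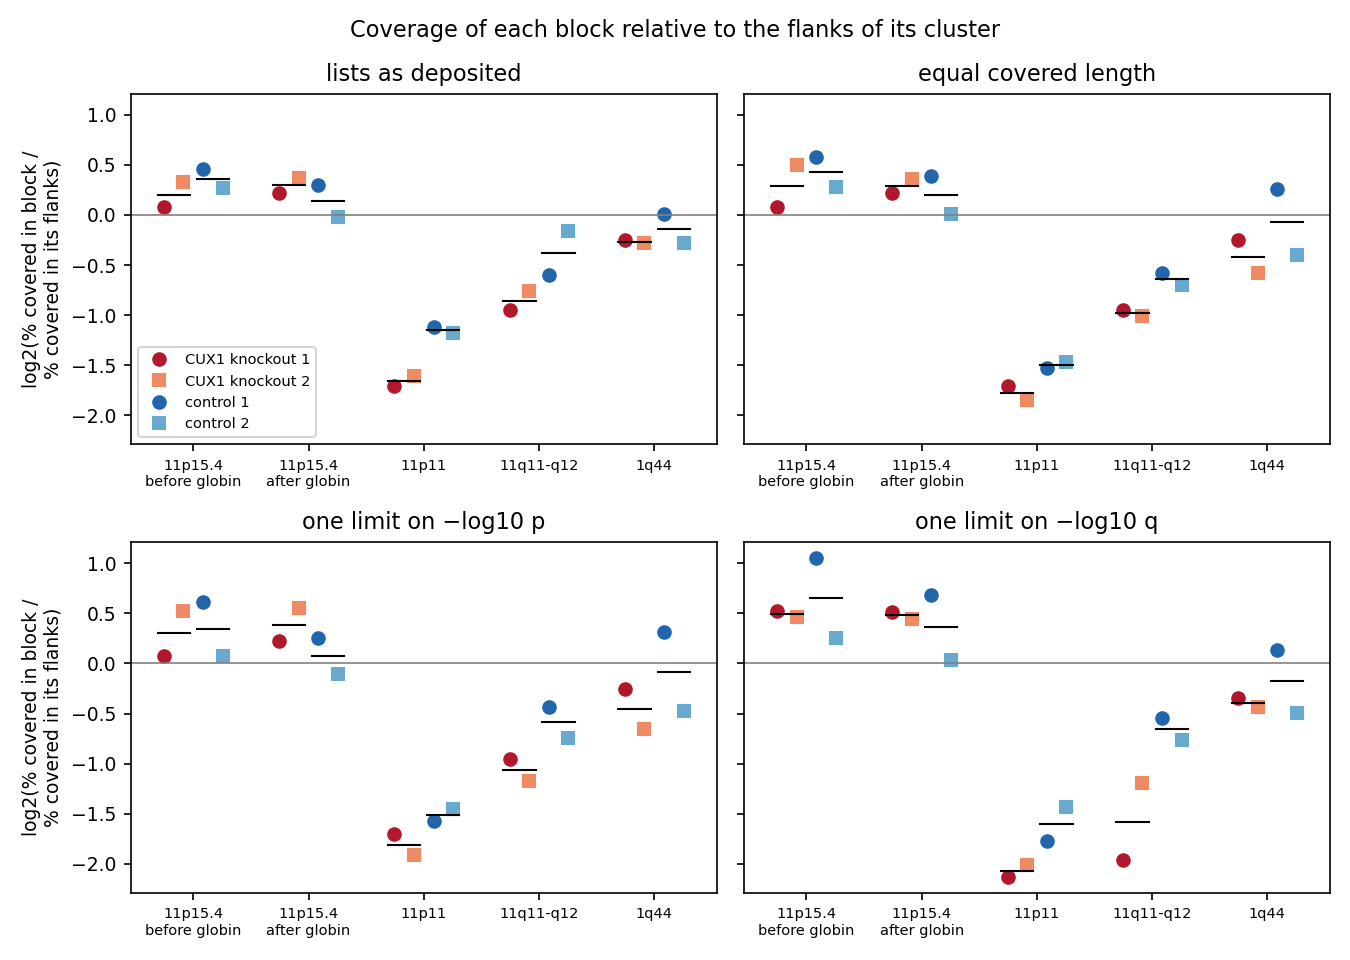
Log2 of the coverage of each block over that of the flanks of its cluster, 1 point per library with bars at the group means (n = 2 each), in the lists as deposited and in 3 other readings of them; the line at 0 marks equal coverage. In 11p11 and 11q11-q12 both knockouts lie below both controls in all 4 panels, and in the other 3 blocks the groups overlap.

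A direct comparison of the 2 blocks beside the centromere with the other 3 was also chosen after the values were seen. Peaks covered 7.16% and 12.4% of those 2 blocks in the knockouts, against 16.6% and 18.5% in the controls, and 19.7% and 30.6% of the other 3 in the knockouts, against 36.1% and 31.8% in the controls. The log2 ratio of the first set over the second was -1.46 and -1.30 in the knockouts, against -1.12 and -0.78 in the controls. The difference was -0.43 (exact permutation p = 0.3333), and -0.26 without the second control. It was -0.08 with 1 limit on −log10 p, -0.48 with 1 limit on −log10 q and -0.05 at equal covered length, and the groups overlapped in these 3 readings.

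No 100-kb window of the clusters passed the test across the genome. Of 81 windows with at least 50% of their length in a block, 73 had enough coverage to be tested with limma. At an adjusted p under 0.05, 0 of 73 were lower in the knockouts, against 0.098% of all 27554 windows, and 0 were higher, against 0%. At an unadjusted p under 0.05 there were 13 windows, all lower in the knockouts, or 17.8% against 15% of all windows. Both knockouts lay below both controls in 41 of the 73 windows (56.2%), against 43.3% of all windows, and above both in 1, against 4.98%. The median difference was -9.18 points over the cluster windows and -5.93 points over all windows. After quantile normalization these medians were -2.48 and 0.12 points, and 0 windows passed in the clusters or in the whole genome. An unadjusted p under 0.05 was reached by 2 cluster windows, both higher in the knockouts, or 2.74% against 8.01% of all windows. With 1 limit on −log10 p for all lists, as described above, 72 cluster windows were tested. Again 0 windows passed in the clusters or in the whole genome. At an unadjusted p under 0.05 there were 6 cluster windows, all higher in the knockouts, or 8.33% against 10.5% of all windows. Both knockouts then lay below both controls in 8 of the 72 windows, against 6.46% of all windows, and above both in 23, against 35.7%.

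Of the 13 windows, 6 lay in 11p11 and 4 in 11q11-q12, which held 42 of the 73 windows tested. The smallest unadjusted p was that of chr11:56100001-56200000, which was covered over 16.8% and 9.18% in the knockouts, against 38.4% and 28.5% in the controls (difference -20.5 points, limma unadjusted p of 0.00911, adjusted p = 0.200). The window chr11:51400001-51500000, the last one before the centromere gap, was covered over 8.84% and 9.65%, against 32.0% and 23.2% (limma unadjusted p of 0.0143, adjusted p = 0.231). The window chr11:48300001-48400000 at the other end of the 11p11 block was covered over 10.1% and 15.6%, against 33.8% and 29.9% (limma unadjusted p of 0.0155, adjusted p = 0.237). The groups did not overlap in any of these 3 windows. They were picked for the smallest p in this direction, so this adds nothing to the counts above.

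Over all 27554 windows the median difference was -5.93 points, so the whole lists leaned the same way, and directions by group means were not counted there. By group means, 66 of the 73 cluster windows were lower in the knockouts and 7 were higher. Of the higher ones, 3 were in the 11p15.4 block after the globin genes and 4 in 11p11. The higher window with the smallest p was chr11:6100001-6200000, covered over 32.7% and 42.8% in the knockouts, against 32.3% and 26.2% in the controls (limma unadjusted p of 0.316, adjusted p = 0.624). It was the window in which both knockouts lay above both controls. The next were chr11:50600001-50700000, covered over 1.5% and 3.65% in the knockouts, against 0% and 2.34% in the controls, and chr11:5600001-5700000, covered over 28.6% and 45.4%, against 37.0% and 26.9%. Their limma unadjusted p was 0.510 and 0.561. In windows of 1 Mb, 9 lay in the blocks and 0 passed at an adjusted p under 0.05, against 4.24% of all such windows that passed and were lower and 0.0707% that passed and were higher. Both knockouts lay below both controls in 8 of these 9, against 63.7% of all 1-Mb windows, and above both in 0, against 1.48%.

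Peaks in the clusters were narrower in both knockouts. The median width was 1220 and 1956 bp in the knockouts, against 2294 and 2205 bp in the controls, a difference of -29.4% (exact permutation p = 0.3333, n = 2 each). The mean of the medians was 1588 ± 520.1 bp for the knockouts and 2249 ± 63.3 bp for the controls (SD, n = 2 each). The second knockout lay much closer to the controls than to the first, and without the first the difference was -294 bp. Divided by the smallest width in each list, the median was 4.64 and 5.77 in the knockouts, against 6.34 and 5.97 in the controls. Peaks of at least 5000 bp made up 1.46% and 8.28% of the cluster peaks in the knockouts, against 13.6% and 11.7% in the controls. Among all autosomal peaks these shares were 2.71% and 8.05% in the knockouts, against 12.7% and 12.0% in the controls. In the flanks the median width was 1509 and 2279 bp in the knockouts, against 2383 and 2509 bp in the controls. On the autosomes it was 1336 and 1915 bp in the knockouts, against 2351 and 2300 bp in the controls. Narrower knockout peaks were thus not particular to the clusters.

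The narrowest peaks were those beside the centromere in the first knockout. In 11p11 the median width was 955 and 1534 bp in the knockouts, against 2039 and 1875 bp in the controls. In 11q11-q12 it was 1023 and 1826 bp, against 2411 and 2323 bp. The groups did not overlap in these 2 blocks. Nor did they in the 11p15.4 block before the globin genes, at 1597 and 2109.5 bp in the knockouts, against 2216 and 2526.5 bp in the controls. In 1q44 the medians were 1728 and 2605 bp in the knockouts, against 2438 and 2468 bp in the controls, so the second knockout had the highest median there.

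Neighbouring peaks were farther apart in the knockouts. The median gap within a block was 6278 and 5346 bp in the knockouts, against 4007 and 4545 bp in the controls. In the flanks it was 5288 and 4368 bp for the knockouts, against 3624 and 4114 bp for the controls. Over the autosomes it was 5787 and 4993 bp for the knockouts, against 4148 and 4461 bp for the controls. In 11p11 it reached 9279 and 9697 bp in the knockouts, against 6661 and 7166 bp in the controls. Both knockouts had a longer median gap than both controls in each block except the 11p15.4 block after the globin genes. With 1 limit on −log10 p the cluster gap was instead shorter in the knockouts, by a mean difference of -2660 bp. Listed peaks numbered 77.2 and 81.5 per Mb of the blocks in the knockouts, against 88.1 and 88.5 in the controls. With the same limit they were more numerous in the knockouts, by 22.4 per Mb.

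The serial numbers in the peak names were taken to number all called peaks, an assumption that no label settles. By them the blocks held 139.5 and 126 called peaks per Mb in the knockouts, against 136 and 134 in the controls, and the groups overlapped. On the autosomes there were 152 and 130 per Mb in the knockouts, against 143 and 130 in the controls. In the flanks there were 185 and 155 per Mb, against 160 and 152. The first knockout had the highest value in both, and the groups overlapped. Single blocks differed in direction. In 11p11 there were 87.6 and 88.8 per Mb in the knockouts, against 109 and 107 in the controls, and in 11q11-q12 there were 127.5 and 135 per Mb, against 151 and 153. In 1q44 there were 188 and 153 per Mb in the knockouts, against 148 and 147 in the controls. The 11p15.4 block after the globin genes had 202 and 169.6 per Mb, against 159 and 163. The block before them had 218 and 165 per Mb in the knockouts, against 167 and 152 in the controls, and here the groups overlapped.

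**Figure D4:**
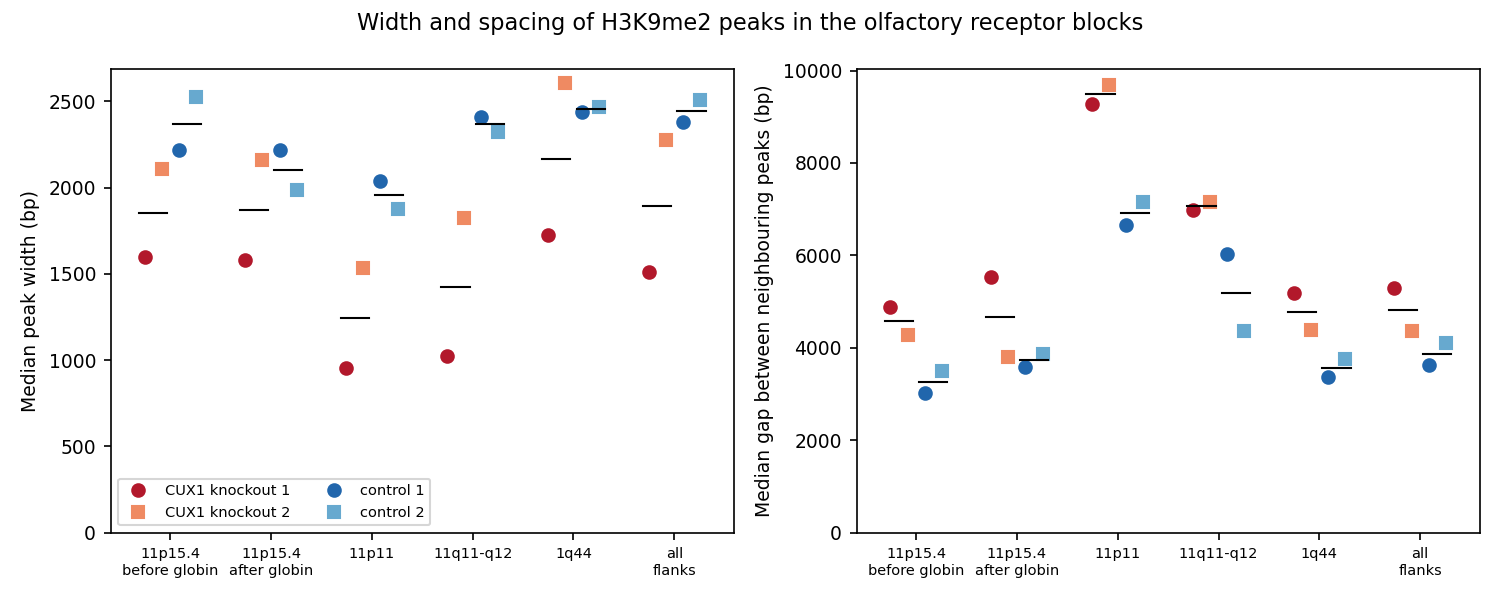
Median peak width (left) and median gap between neighbouring peaks of a block (right), in bp, for each olfactory receptor block and all flanks, 1 point per library with bars at the group means (n = 2 each). In 11p11 the knockouts have narrower peaks (955 and 1534 bp, against 2039 and 1875 bp in the controls) and wider gaps (9279 and 9697 bp, against 6661 and 7166 bp). Both also hold in 11q11-q12 and in the 11p15.4 block before the globin genes.

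Bases under a peak of 1 library only made up 27.6% of the blocks, against 28.5% of the autosomes. The sharing to be had from covered length alone was not computed. Of the cluster bases, 50.5% lay under no peak in any library, against 49.0% of the autosomes. This share ran to 67.7% in 11p11 and was 29.0% in the 11p15.4 block before the globin genes. Peaks of all 4 libraries met over 101 kb, or 1.27% of the blocks, against 2.67% of the flanks and 1.17% of the autosomes. Bases under a peak in both knockouts and neither control came to 99.0 kb (1.24% of the blocks, 2.15% of the flanks, 1.51% of the autosomes). Those in both controls and neither knockout came to 344 kb (4.29% of the blocks, 5.32% of the flanks, 3.97% of the autosomes). Both shares follow from the covered length of each list as well as from where its peaks lie.

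The Jaccard index is the length covered in both libraries over the length covered in either. In the clusters it was 0.166 between the knockouts and 0.235 between the controls, and it lay from 0.151 to 0.229 between a knockout and a control. On the autosomes the indices within groups were 0.158 for the knockouts and 0.233 for the controls. In the clusters the partner of the same group was the most similar library for each library but the second knockout. Some margins were small. The first knockout had 0.166 with its partner, against 0.155 and 0.151 with the controls. The first control had 0.235 with its partner, against 0.229 with the second knockout. On the autosomes the first knockout had 0.158 with its partner, against 0.162 with each control. The second knockout shared more with each control (0.229 and 0.225) than with the first knockout, whose list covered the least. Among the blocks, 1q44 had the highest index within each group (0.247 for the knockouts and 0.321 for the controls).

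The stretches common to all 4 libraries were short. The longest was 2779 bp at chr11:5809351-5812129, in the 11p15.4 block after the globin genes. In 1q44 the longest was 2410 bp (chr1:248632631-248635040), and in the 11p15.4 block before the globin genes it was 2186 bp (chr11:4671259-4673444). The longest stretch covered in both knockouts and neither control was 3018 bp (chr11:49326986-49330003, in 11p11). The longest covered in both controls and neither knockout was 6307 bp (chr11:4789815-4796121, in 11p15.4).

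Cluster peaks were about as strong as the rest of each list. Their median −log10 p, the authors' value for each peak, was 1.69 and 1.51 in the knockouts, against 1.46 and 1.46 in the controls. Over the whole lists the median was 1.67 and 1.53 in the knockouts, against 1.46 and 1.47 in the controls. Their median fold over background was 1.96 and 1.76 in the knockouts, against 1.77 and 1.71 in the controls. A q of 0.05 was reached by 1 cluster peak in each knockout and by 0 in each control. Over the whole lists it was reached by 9 and 460 peaks in the knockouts, against 17 and 312 in the controls.

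These 2 peaks overlapped in 1q44. The first knockout had a peak of 1203 bp at chr1:248566587-248567789, with a −log10 p of 3.68, a −log10 q of 1.74 and a fold of 2.48, which ranked 68 in its list by −log10 p. The second knockout had a peak of 1081 bp at chr1:248567481-248568561, with a −log10 p of 13.4, a −log10 q of 10.5 and a fold of 3.88, which ranked 4 in its list. They shared 309 bp. The next strongest peak of the 1q44 block had a −log10 p of 2.51 in the first knockout and 2.38 in the second, and the strongest in the controls had 2.74 and 2.65.

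No listed control peak overlapped this site. The nearest one ended 1311 bp before it in the first control, and in the second the nearest one began 4795 bp after it. Between the control peaks on either side, 1 serial number was missing from the list of the first control and 0 from that of the second. A called but unlisted weak peak is therefore possible in the first control. In no other block did the strongest peaks of 2 libraries overlap. In 11q11-q12, for example, the strongest peak of the first knockout (chr11:56528298-56528572, −log10 p of 3.33) met peaks of 1.69 in the second knockout and 1.32 in the second control, and none in the first control.

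**Figure D5:**
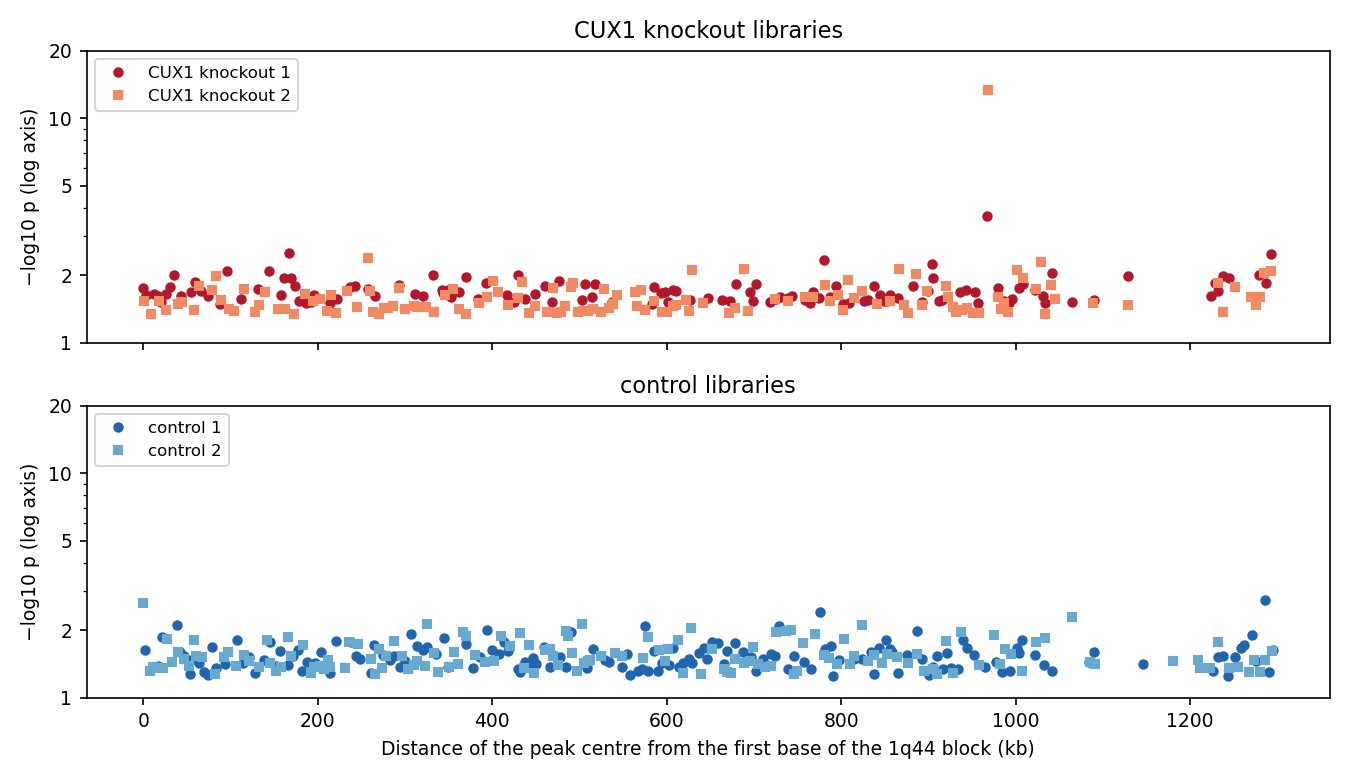
Strength of every peak of the 1q44 block as −log10 p (log axis) against the distance of its centre from the start of the block in kb, with the knockout libraries above and the control libraries below. Overlapping peaks of both knockouts stand out at −log10 p of 3.68 and 13.4, and all control peaks lie at 2.74 or below.

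The widest cluster peaks were found in the controls except in the 11p15.4 block after the globin genes. The widest of all was 14930 bp, in the first control (chr1:247686244-247701173), against a widest of 5530 and 10855 bp in the same block in the knockouts. After the globin genes the widest was 9529 bp, in the second knockout (chr11:5464894-5474422). The first control also had a peak of 10352 bp (chr11:5226360-5236711) that crossed the end of the block before the globin genes. In the stretch between the 11p15.4 blocks (chr11:5230001-5329999), which holds the beta-globin genes, peaks covered 13.6% and 39.4% in the knockouts, against 49.3% and 44.2% in the controls. This stretch of 100 kb was thus covered at least as densely as the receptor blocks beside it in every library but the first knockout, with 8 and 18 peaks in the knockouts, against 18 and 16 in the controls.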

How the data were processed

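Peak lists of H3K9me2 CUT&RUN from 4 K562 libraries were used. The submitters' processing notes name MACS2 2.1.0, BWA 0.7.17, deepTools 3.5.1 and SAMtools 1.16.1 and the build hg19, without a role for each; settings, any background library and depth are not given in the sources used here. Each library has its own deposited list, so peaks were not pooled. Each deposited peak has a score (the whole-number part of 10 times its −log10 p in at least 99.99% of peaks), a fold (ratio of enrichment over local background), a −log10 p-value and a −log10 q-value; these are the authors' values and only described, ranked or filtered peaks. Groups follow the sample titles. Peak names carry "cux1kd" in both knockouts and a "sub" tag in control replicate 1, which the labels do not explain.

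Covered bases, widths and gaps were computed with Python 3.11.15 and pandas 2.3.3, and group means compared by two-sided exact permutation tests (SciPy 1.17.1). The percent of 100-kb and 1-Mb windows under peaks was tested with limma 3.58.1 in R 4.3.3 (eBayes with trend, Benjamini-Hochberg over all windows with a mean of at least 1%) and the fit was tested on simulated data. Members, blocks, tests and lists were chosen with earlier results of these data known. Windows named were the 3 smallest p in a direction; peaks named were the strongest and widest per block and library, and other stretches, and those beside the 1q44 site, were chosen after their values were seen. Gene names and promoters are from RefSeq GRCh38.p14. No hg19 genome or annotation was used here.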

Additional observations from a re-analysis of the deposited data

How the results depend on the processing

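Of 169 recomputed values, 149 kept their direction and their side of the threshold, 19 reversed and 1 moved; the differences under the replicate block, and those in ratios without peak-free stretches, equal the main ones by construction and test nothing. The reading of the lists mattered most. With 1 limit on −log10 p the difference in coverage of all blocks was 1.61 points, in median gap -2660 bp and in peaks per Mb 22.4; with 1 limit on −log10 q these were 2.57 points, -7413 bp and 20.3, and at equal covered length the peaks per Mb differed by 11.9. Single blocks also reversed, in genome order on chromosome 11 and then 1q44. With the limit on −log10 p the first 4 blocks differed by 3.59, 7.47, 0.869 and 0.508 points. With the limit on −log10 q the first 3 differed by 6.50, 8.77 and 0.318 points and 1q44 by 4.95 points. The block after the globin genes differed by 1.51 points at equal covered length and by 1.21 points without knockout replicate 1. With 1 library left out at a time, the difference in that block ranged from -9.87 to 1.21 points, and that in the log2 ratio of 1q44 to its flanks from -0.28 to 0.0104. The mean Jaccard index within groups minus that between groups was -0.00483 with the limit on −log10 q, and positive otherwise. The cause was not tested.

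With 1 library left out at a time, the difference ranged from -11.9 to -4.43 points in coverage, from -0.30 to -0.18 in log2 ratio to the flanks, from -0.30 to -0.08 in log2 ratio to the autosomes, from -1029 to -294 bp in width, from 1070 to 2002 bp in gap and from -11.1 to -6.81 in peaks per Mb. The ratio of the blocks beside the centromere to the others ranged from -0.60 to -0.26. Cluster windows past the threshold ranged from 0 to 5, with 5, all lower, without knockout replicate 2, when 2312 windows of the genome passed. These left-out values of single regions carry no test. The groups share replicate numbers, but over 26172 windows same-numbered libraries deviated together with a correlation of only 0.05. With 2 balanced pairs the replicate block gives the same mean difference in coverage (-8.16 points) by arithmetic; it called 0 cluster windows, while windows of the whole genome past the threshold numbered 173 in place of 27. Counts of receptor genes under peaks and flanks without receptor genes were not run, since no hg19 annotation was used here. What depth limits cannot be said, since no depth is known.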
